A study of Drosophila melanogaster with 12 samples.

Results

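The insulin pathway was examined through 9 genes of Drosophila melanogaster: the insulin-like peptides Ilp2, Ilp3, Ilp5 and Ilp6, the peptide-binding protein ImpL2, the receptor InR, its adaptor chico, the transcription factor foxo and the foxo target Thor. They were chosen by name, as the rows of the count table with these symbols. All 9 of 9 were found among 23793 rows, and all 9 were among the 12661 rows with enough counts to be tested.

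RNA-seq was done on heads of male flies aged 3 days, with 50 heads pooled per replicate. In all 4 groups the nSyb driver, which is active across neurons, expressed a hairpin RNA for RNA interference. The hairpin was directed at mCherry in NTC IR-1, at Luciferase in NTC IR-2, at dYEATS2 in dYEATS2-IR and at dENL/AF9 in dENL/AF9-IR, with 3 libraries per group. The first pair are controls without a fly target, and both other targets encode chromatin proteins whose YEATS domain binds acylated histones. Neurons would make the hairpin, whereas a whole head also holds glia, fat body, muscle and cuticle that would not. Sample titles add "young" for dENL/AF9-IR and NTC IR-2 only, although 3 days is the age given for every library. Each knockdown shares its form of title with its own control, whereas the comparison of the controls crosses this difference. What the difference in titles stands for is not stated, and its part in any result was not tested. The labels do not say whether the replicates of a group came from separate crosses, so p-values measure the spread between these pools, which may be partly technical.

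In flies, a small cluster of neurosecretory brain neurons, the insulin-producing cells, makes Ilp2, Ilp3 and Ilp5 and releases them into the circulation, while Ilp6 is made largely by fat body and glia. The peptides act on InR, and the signal passes through chico, PI3 kinase and Akt to hold foxo out of the nucleus and to activate TOR. Low insulin signalling lets foxo raise its targets, among them Thor and InR itself, and the pathway is known for its part in growth, feeding, stress resistance and lifespan.

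Library totals ranged from 30298251 to 54132559 counts, and the mitochondrial large ribosomal RNA took 14.8% to 32.3% of them. The deposited tables disagree on names: in 12 of 12 columns the normalized table gives a library another group's name than the count table does. Libraries keep here the names that the count table gives them, so each direction below holds for libraries as labelled there, and results under the other names stand in the closing section. Neither target was called lower in its own knockdown at the whole-head level. D12, the gene of dYEATS2, had 8.83 ± 0.281 CPM (reads counted, scaled to the size of the library; mean ± SD, n = 3) in dYEATS2-IR and 9.05 ± 0.966 in NTC IR-1. For ear, the gene of dENL/AF9, the values were 40.6 ± 2.92 CPM in dENL/AF9-IR and 42.0 ± 7.36 in NTC IR-2. The labels of the knockdown groups were therefore not checked by the level of their targets.

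Head tissue was present by its markers in every library. All 10 of 10 neuronal markers, 10 of 10 glial markers and 13 of 13 photoreceptor markers passed the filter on low counts. The groups also differed in marker levels. The summed level of 13 fat body markers was 3272 to 3861 CPM in NTC IR-1, 763 to 974 in dYEATS2-IR, 783 to 842 in NTC IR-2 and 810.5 to 1686 in dENL/AF9-IR. Summed over 10 neuronal markers, the level was 5675 to 8091 CPM in NTC IR-1, 7967 to 9871 in dYEATS2-IR, 10655 to 13983 in NTC IR-2 and 11691 to 12844 in dENL/AF9-IR. Summed over 13 photoreceptor markers, it was 29771 to 44241 CPM in NTC IR-1, 53645 to 61297 in dYEATS2-IR, 37287 to 49866 in NTC IR-2 and 41033 to 60575 in dENL/AF9-IR. In such bulk samples fewer cells of a type and less RNA per cell cannot be told apart.

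Transcripts that differ by sex set the NTC IR-1 libraries apart, although all samples are labelled male. The yolk protein genes Yp1, Yp2 and Yp3, which are typical of females, stood at 743 ± 137, 300 ± 76.7 and 572 ± 113 CPM in NTC IR-1. In the libraries of the other 3 groups Yp1 had at most 0.488 CPM, Yp2 at most 1.12 CPM and Yp3 at most 34.7 CPM. The lncRNA roX1, of male dosage compensation, was abundant in every library, at 672, 767 and 1541 CPM in NTC IR-1 and 1259 to 1914 CPM in the other 9. NTC IR-1 replicates 1 and 2 were thus the lowest of the 12 in roX1. SP and Acp26Aa, which encode seminal proteins of males, were also highest in NTC IR-1, though at low counts. SP had 1.00 ± 0.502 CPM there, 0.157 in dYEATS2-IR and 0 in NTC IR-2 and dENL/AF9-IR. For Acp26Aa the means were 0.683 CPM in NTC IR-1, 0.170 in dYEATS2-IR, 0 in NTC IR-2 and 0.225 in dENL/AF9-IR. The sex of the flies was not tested further, and it cannot be told apart from the group in any comparison with NTC IR-1.

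Among the 9 genes, Ilp6 in NTC IR-2 against NTC IR-1 was the 1 call in 54 tests of a gene in a pair of groups. Genes were called at an FDR below 0.05, the p-value adjusted by Benjamini-Hochberg over all 12661 rows, in edgeR's quasi-likelihood test. In the test of any difference among the 4 groups 0 of 9 were called, while 19.6% of all rows were. By unadjusted p below 0.05 that test picked 2 genes, Ilp6 and foxo, beside 36.6% of all rows. DESeq2's likelihood ratio test called 1, Ilp6, beside 3718 of 14219 rows.

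**Figure D1:**
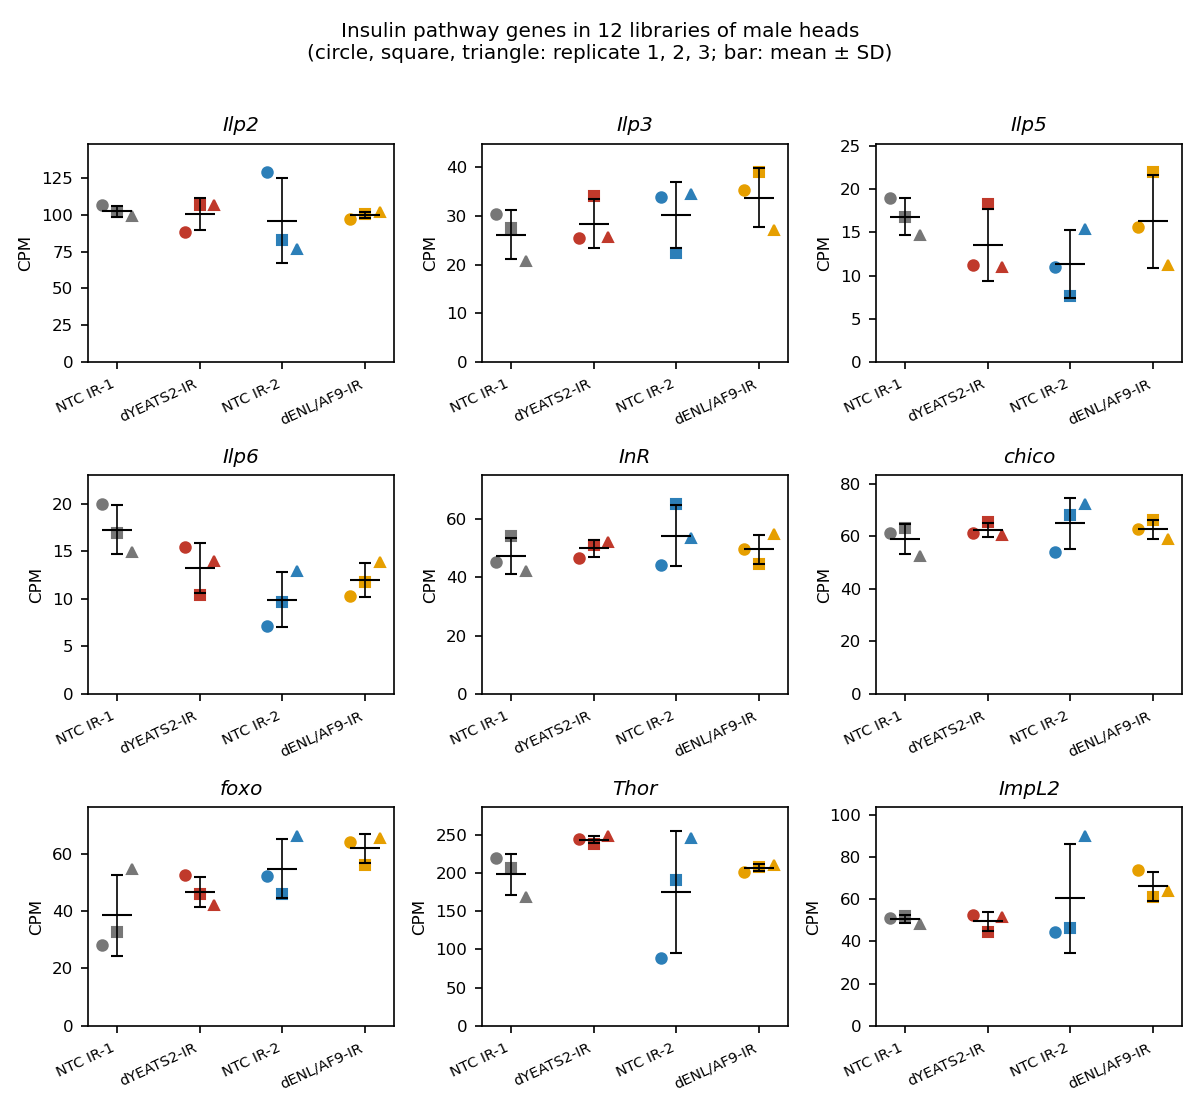
Level of each insulin pathway gene in CPM (vertical axes, each from 0) in the 4 groups (horizontal axes); points are libraries and bars the mean ± SD of 3. Ilp6 lies highest in NTC IR-1, at 14.9 to 19.97 CPM, while chico stays within 52.4 to 72.3 CPM across the 12 libraries, and NTC IR-2 shows the widest scatter for most genes.

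The peptides of the insulin-producing cells are encoded side by side. Ilp2 lies at 3L:9799698-9800440 on the plus strand, Ilp3 at 3L:9801298-9802120 on the minus strand and Ilp5 at 3L:9823349-9823897 on the minus strand (annotation BDGP6.54), within the Ilp1 to Ilp5 cluster of 25.5 kb. Ilp2 and Ilp3 fall inside the locus of CG32052 and Ilp5 inside that of CG43897, with 0 exonic bases shared in each case.

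Ilp2, the most abundant of the brain peptides, had 106, 102 and 98.9 CPM in NTC IR-1 and 88.3, 107 and 106 CPM in dYEATS2-IR. In NTC IR-2 the 3 libraries had 129, 82.5 and 76.6 CPM, and in dENL/AF9-IR they had 97.1, 101 and 101 CPM. All groups overlapped, and the highest and the lowest of the 12 values both came from NTC IR-2. The log2 fold change was -0.03 (SE 0.166) in dYEATS2-IR against NTC IR-1, with a 95% interval of 0.763-fold to 1.26-fold. For dENL/AF9-IR against NTC IR-2 the value was 0.06 (SE 0.166), with an interval of 0.808-fold to 1.34-fold. Without replicate 1 of NTC IR-2, Ilp2 was lower in NTC IR-2 than in NTC IR-1 by a log2 fold change of -0.36 (FDR 0.0282, edgeR), against -0.09 (FDR 0.73) with it.

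Ilp3, whose product is released from the same cells, had 30.3, 27.4 and 20.6 CPM in NTC IR-1 and 25.4, 34.1 and 25.6 CPM in dYEATS2-IR. Its levels were 33.8, 22.3 and 34.4 CPM in NTC IR-2 and 35.2, 38.9 and 27.0 CPM in dENL/AF9-IR. The ranges of all 4 groups overlapped, and no pair of groups passed the test (log2 fold change 0.12, SE 0.208, in dYEATS2-IR against NTC IR-1 and 0.16, SE 0.207, for dENL/AF9-IR against NTC IR-2).

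Ilp5, the third brain peptide and one whose transcript is known to respond to nutrition, varied most of all 9 genes, with a coefficient of variation of 28.7% over the 12 libraries. NTC IR-1 had 19.0, 16.7 and 14.7 CPM, and dYEATS2-IR had 11.3, 18.3 and 10.97 CPM. NTC IR-2 had 10.98, 7.63 and 15.4 CPM, and dENL/AF9-IR had 15.6, 21.9 and 11.2 CPM. Each group had libraries on both sides of the 12-library median of 15.1 CPM, and the groups overlapped. Between the controls Ilp5 had a log2 fold change of -0.56 in NTC IR-2 (SE 0.298, FDR 0.205, edgeR). Its interval was also the widest: the log2 fold change of -0.31 (SE 0.297) in dYEATS2-IR covered 0.512-fold to 1.26-fold, and that of 0.52 (SE 0.298) in dENL/AF9-IR covered 0.910-fold to 2.25-fold. The difference between both knockdown effects was -0.83 on the log2 scale (SE 0.421, FDR 0.407).

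Per kilobase of exon the brain peptides kept the order Ilp2, Ilp3, Ilp5 in their means over the 12 libraries, at 149, 39.4 and 30.3 CPM per kb. Ilp2 made up 59.4% to 73.9% of the summed per-kilobase level of the 3 peptides. Ilp3 made up 13.4% to 23.8%, and Ilp5 8.83% to 18.5%. The lowest and the highest share of Ilp2 both belonged to NTC IR-2, in replicates 3 and 1. Dsk, a neuropeptide gene that the insulin-producing cells also express, was at 110, 60.6 and 35.9 CPM in NTC IR-2, so that replicate 1 was highest and replicate 3 lowest there, as for Ilp2. Ilp3 and Ilp5 went another way in NTC IR-2. Both were highest in replicate 3 (34.4 and 15.4 CPM) and lowest in replicate 2 (22.3 and 7.63 CPM). In the other groups Dsk ranged from 36.6 to 78.4 CPM. Of the 4 markers of these cells, 0 were called in any pair of groups by edgeR, and 0 had an unadjusted p below 0.05. Over the pairs, 0% to 19.5% of all rows were called and 5.22% to 35% had such a p.

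Ilp6 (X:2331493-2334658, minus strand), the insulin-like peptide of fat body and glia, gave the call. NTC IR-1 had 19.97, 16.9 and 14.9 CPM and dYEATS2-IR had 15.5, 10.4 and 13.9 CPM. NTC IR-2 had 7.14, 9.67 and 12.9 CPM and dENL/AF9-IR had 10.3, 11.8 and 13.9 CPM. All 3 libraries of NTC IR-1 lay above every library of NTC IR-2 and of dENL/AF9-IR, and the dYEATS2-IR range reached into that of NTC IR-1. Between the controls Ilp6 was the 1 gene of 9 with groups apart, as were 33.5% of all rows. The gene was lower in NTC IR-2 than in NTC IR-1, with a log2 fold change of -0.80 (SE 0.222, FDR 0.0294, edgeR), or 0.576-fold with an interval of 0.411-fold to 0.807-fold. It was the 1 of 9 genes called between the controls, where 19.5% of all rows were called and 9.16% were called lower. The share of 1 in 9 is near that background.

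In dENL/AF9-IR against NTC IR-1 the log2 fold change of Ilp6 was -0.52 (SE 0.220, FDR 0.125), and in dYEATS2-IR against NTC IR-1 it was -0.38 (SE 0.220, FDR 0.347). Relative to NTC IR-2, dENL/AF9-IR had 0.27 (SE 0.221, FDR 1). These comparisons share their control libraries, so they are not independent of each other. The call between the controls held in 8 of 12 fits that left out 1 library, with log2 fold changes of -1.03 to -0.60 and FDR 0.0162 to 0.118. It did not hold when replicate 1 (FDR 0.118) or 2 (FDR 0.0687) of NTC IR-1 was left out, nor without NTC IR-2 replicate 1 (FDR 0.0661) or NTC IR-2 replicate 2 (FDR 0.0908).

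Some fat body and glial markers moved beside Ilp6. Between the controls, 8 of 13 fat body markers were lower in NTC IR-2 and 0 were higher, and their median log2 fold change was -1.92. Without the 3 yolk protein genes, 5 of 10 were lower and 0 higher, with a median of -1.62, and their sum ranged over 763 to 831 CPM in NTC IR-2, below the 1563 to 2608 CPM of NTC IR-1. Of 10 glial markers 3 were lower in NTC IR-2 (alrm, Gat and wrapper) and 0 were called higher, while 4 had a log2 fold change above 0 (the largest 0.42, Gs2, FDR 0.124), with a summed level of 1214 to 1708 CPM for NTC IR-1 and 1377 to 1793 for NTC IR-2. The part of these markers, and of the transcripts that differ by sex, in the difference of Ilp6 was not tested.

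ImpL2 (3L:4224006-4236147, minus strand) encodes a secreted protein that binds insulin-like peptides and dampens their action. It had 51.1, 52.0 and 48.3 CPM in NTC IR-1 and 52.3, 44.3 and 51.7 CPM in dYEATS2-IR. NTC IR-2 had 44.6, 46.5 and 90.0 CPM, and dENL/AF9-IR had 73.6, 60.8 and 63.7 CPM. The dENL/AF9-IR libraries lay above all those of NTC IR-1 and dYEATS2-IR, while replicate 3 of NTC IR-2 was the highest of the 12. With all libraries in the fit the log2 fold change in dENL/AF9-IR was 0.39 against NTC IR-1 (SE 0.222, FDR 0.245), and against NTC IR-2 it was 0.13 (SE 0.221, FDR 1). Without replicate 3 of NTC IR-2, that against NTC IR-1 was 0.39 with FDR 0.0248, and dYEATS2-IR was below dENL/AF9-IR with a log2 fold change of -0.42 and FDR 0.0375. ImpL2 shares 1651 exonic bases on the same strand with CG46460, a row with only 1 to 30 counts, so how reads were divided between both is uncertain.

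InR (3R:21570248-21619321, minus strand), the single insulin receptor of the fly, had 45.4, 54.1 and 42.2 CPM in NTC IR-1 and 46.6, 51.2 and 52.1 CPM in dYEATS2-IR. It had 44.1, 65.2 and 53.6 CPM in NTC IR-2 and 49.6, 44.7 and 54.7 CPM in dENL/AF9-IR. All groups overlapped. The intervals were 0.850-fold to 1.32-fold for dYEATS2-IR against NTC IR-1 and 0.735-fold to 1.14-fold for dENL/AF9-IR against NTC IR-2. Per kilobase InR was the lowest of the 9 genes, at 4.42 CPM per kb over an exonic length of 11.4 kb.

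The adaptor chico (2L:10242512-10247078, minus strand), which links the receptor to PI3 kinase, was the steadiest gene. NTC IR-1 had 61.3, 63.3 and 52.4 CPM, dYEATS2-IR 61.2, 65.6 and 60.3 CPM, NTC IR-2 54.1, 68.2 and 72.3 CPM, and dENL/AF9-IR 62.9, 66.0 and 58.8 CPM. Its coefficient of variation was 8.97% over the 12 libraries, against a median of 15.1% over 6661 genes with a mean of at least 10 CPM. The interval was 0.886-fold to 1.26-fold in dYEATS2-IR against NTC IR-1 and 0.809-fold to 1.1505-fold for dENL/AF9-IR against NTC IR-2. An antisense gene, asRNA:CR44995, shares 380 exonic bases with chico and had 0 to 5 counts.

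The transcription factor foxo (3R:14056945-14087978, plus strand) had 28.3, 32.6 and 54.6 CPM in NTC IR-1 and 52.4, 45.8 and 41.9 CPM in dYEATS2-IR. NTC IR-2 had 52.0, 46.1 and 66.2 CPM, and dENL/AF9-IR had 64.0, 56.1 and 65.4 CPM. Replicate 3 of NTC IR-1 stood well above the other NTC IR-1 libraries, and all dENL/AF9-IR libraries lay above those of NTC IR-1 and dYEATS2-IR. In dENL/AF9-IR against NTC IR-1 the log2 fold change was 0.68 (SE 0.219, FDR 0.0561, edgeR), which missed the threshold. DESeq2's Wald test called it (FDR 0.0309). The log2 fold change was 0.51 (SE 0.219, FDR 0.122) between the controls and 0.28 (SE 0.219, FDR 0.499) in dYEATS2-IR against NTC IR-1.

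These calls of foxo changed with the fit. In dENL/AF9-IR against NTC IR-1 it was called with the replicate block (FDR 0.0469) and in 2 of 12 fits that left out 1 library, those without NTC IR-1 replicate 3 or NTC IR-2 replicate 3 (FDR 0.0467), with FDR 0.00325 to 0.231 over the 12. Without replicate 3 of NTC IR-1, foxo was higher than in NTC IR-1 by log2 fold changes of 1.02 in dENL/AF9-IR (FDR 0.00325), 0.85 in NTC IR-2 (FDR 0.00589) and 0.62 in dYEATS2-IR (FDR 0.0426). Against its own control NTC IR-2, dENL/AF9-IR differed in foxo by 0.17 on the log2 scale (SE 0.218, FDR 1).

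Thor (2L:3478434-3479612, plus strand) encodes the eIF4E-binding protein 4E-BP, a brake on translation that foxo raises transcriptionally and TOR inactivates. NTC IR-1 had 220.0, 206 and 168 CPM, and dYEATS2-IR had 244, 239 and 249 CPM. NTC IR-2 spread widely, with 89.1, 191 and 246 CPM, whereas dENL/AF9-IR was tight, with 202, 208 and 211 CPM. The dYEATS2-IR libraries lay above all those of NTC IR-1 and of dENL/AF9-IR. Their log2 fold change against NTC IR-1 was 0.30 (SE 0.266, FDR 0.56), with an interval of 0.821-fold to 1.84-fold. Relative to NTC IR-2, dENL/AF9-IR had a log2 fold change of 0.24 (SE 0.266, FDR 1). Thor had the highest level per kilobase of the 9 genes, at 273 CPM per kb.

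Across the 9 genes, dYEATS2-IR against NTC IR-1 gave 0 calls, where 4.77% of all rows were called. An unadjusted p below 0.05 was found for 0 of the 9, beside 21.5% of all rows. DESeq2 called 0 of the 9 there, beside 1096 of 13066 rows. Of the 9, 5 were higher and 4 lower, with a median log2 fold change of 0.08 against -0.02 over all rows. The intervals of the 9 genes spanned 0.512-fold to 1.84-fold. Thor was the 1 gene whose groups did not overlap, while 29.3% of all rows had groups that did not.

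For dENL/AF9-IR against NTC IR-2 there were 0 calls among the 9 genes and 0% among all rows, and 0 of the 9 had an unadjusted p below 0.05 against 5.22% of all rows. DESeq2 also called 0 of the 9, beside 31 of 13834 rows. Here 7 were higher and 2 lower, with a median of 0.16 against 0.00 over all rows, and in 0 of 9 were the groups apart (9.22% of all rows). The difference between both knockdown effects was called for 0 of 9 genes and for 0.932% of all rows.

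Setting each knockdown against the other group's control or against the other knockdown gave 0 of 9 calls as well. The share of all rows called was 9.17% in dYEATS2-IR against NTC IR-2, 15.6% in dENL/AF9-IR against NTC IR-1 and 4.94% in dYEATS2-IR against dENL/AF9-IR. At an unadjusted p below 0.05 the counts were 0, 2 (Ilp6 and foxo) and 0 of 9, beside 26%, 32.8% and 22.3% of all rows. DESeq2 called 0, 1 (foxo) and 0, beside 1803 of 13834, 2615 of 13066 and 1169 of 13450 rows. Groups were apart for 0 of 9 in dYEATS2-IR against NTC IR-2 (29.5% of all rows). In dENL/AF9-IR against NTC IR-1, 3 genes had groups apart (Ilp6, foxo and ImpL2; 39.5% of all rows), and in dYEATS2-IR against dENL/AF9-IR 3 had (foxo, Thor and ImpL2; 33.7% of all rows). For 9 of the 9 genes, therefore, no neighbouring groups in the order of the mean levels were told apart by this test, although the dYEATS2-IR and dENL/AF9-IR libraries of Thor, neighbours in that order, did not overlap. For Ilp6 the order was NTC IR-1, dYEATS2-IR, dENL/AF9-IR, NTC IR-2, and of these the first and the last were told apart by the test.

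**Figure D2:**
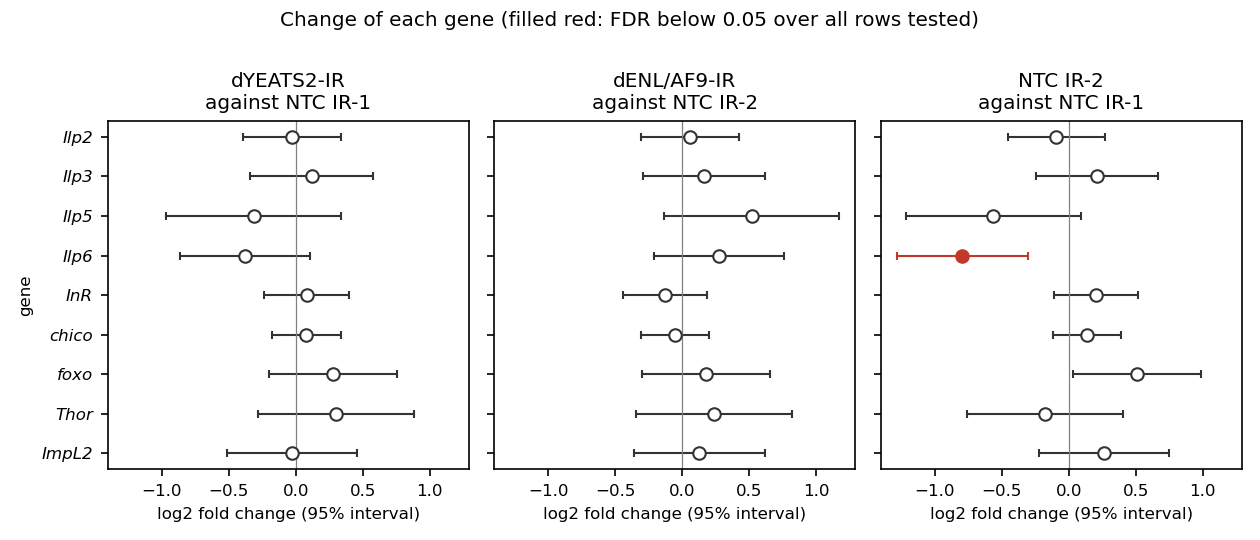
Log2 fold change with its 95% interval (horizontal axes) for each of the 9 genes (vertical axes) in each comparison; red filled points have an FDR below 0.05. The 1 filled point is Ilp6 in NTC IR-2 against NTC IR-1, at -0.80.

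Within groups, NTC IR-2 was the most scattered for these genes. The SD of log2 CPM was largest in NTC IR-2 for 8 of 9 genes and in NTC IR-1 for foxo, while over all rows NTC IR-2 was the most scattered for 39.6%. Its 3 libraries were not extreme together: replicate 1 held the lowest Thor and Ilp6 and the highest Ilp2 of the 12, whereas replicate 3 held the highest ImpL2, foxo and chico and the lowest Ilp2.

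**Figure D3:**
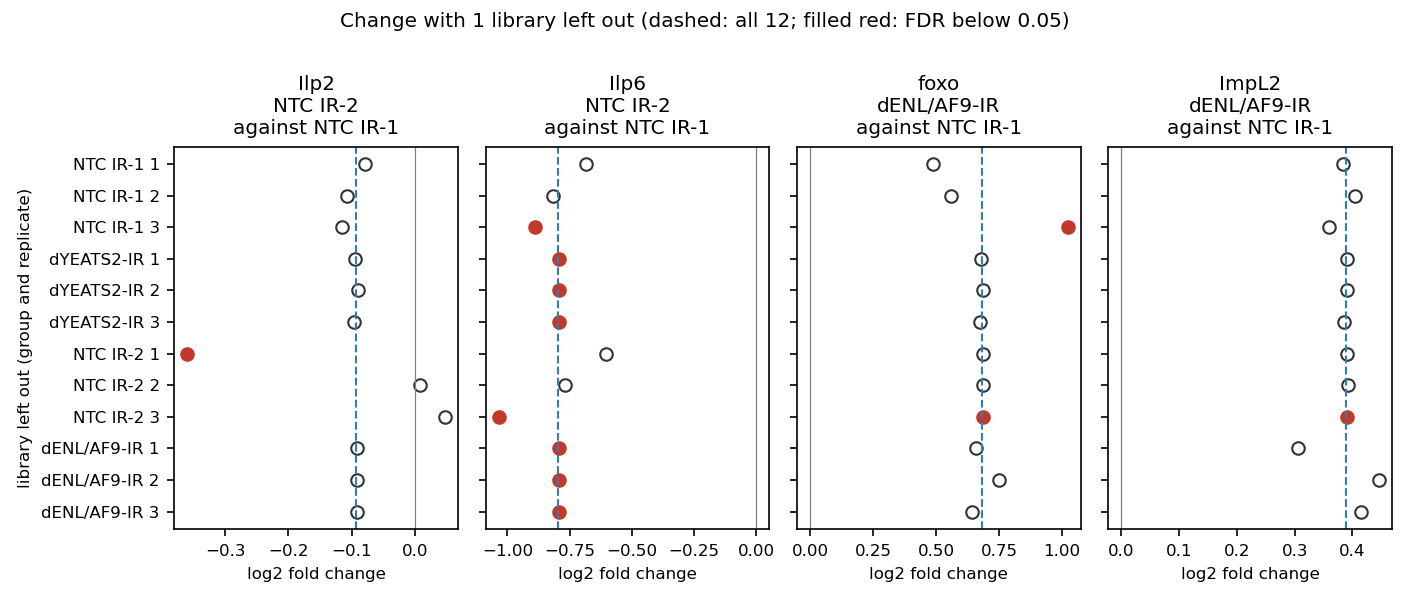
Log2 fold change (horizontal axes) of 4 gene and comparison pairs in fits that each left out 1 library (vertical axes); the dashed line is the value from all 12 libraries and red filled points have an FDR below 0.05. Ilp6 keeps its sign from -1.03 to -0.60, and foxo in dENL/AF9-IR against NTC IR-1 rises to 1.02 without replicate 3 of NTC IR-1.

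The genes most like each of the 9 across the 12 libraries were found by Pearson's r of log2 CPM among 11458 candidates, as a description over libraries that share their groups. Ilp2 was nearest to CG15739 (0.88), cerv and SmE, Ilp3 to CG31019 (0.91), tos and CG1231, and Ilp5 to CG6356 (0.88), asRNA:CR45131 and CG14450. Ilp6 was nearest to CG31102 (0.94), TotA (0.92) and CG33493 (0.92). For ImpL2 the nearest were mav (0.91), CG34227 and prc, for InR tho2 (0.89), CG43850 and asRNA:CR45479, and for chico Golgin245 (0.93), CG5445 and sp3. Those of foxo were Gpdh1 (0.95), bt (0.94) and Mpc1 (0.94), and those of Thor were Lap1 (0.94), Ance-2 and CG2017.

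Other peptides of the family were scarce in these heads. Ilp1 had 7 to 30 counts per library and Ilp7 0 to 19. Ilp8, a relaxin-like peptide that acts through Lgr3, had 8 to 44 counts in 11 libraries and 117 in replicate 3 of NTC IR-2. Ilp4, with 0 to 8 counts, did not pass the filter. Among these, Lgr3 and Sdr, a secreted decoy of the receptor, 0 of 5 tested genes were called in any comparison. In dYEATS2-IR against NTC IR-1, 2 of them had an unadjusted p below 0.05: Sdr (13.0 ± 1.98 against 17.9 ± 2.00 CPM, FDR 0.227) and Lgr3 (4.32 ± 0.915 against 6.19 ± 0.502 CPM, FDR 0.166). Of all rows, 21.5% had such a p there. The comparison of dENL/AF9-IR with NTC IR-2 had 1 such gene, Ilp8 (log2 fold change -1.86, SE 0.752, FDR 0.861), beside 5.22% of all rows. DESeq2 called 0 of the 5 in any comparison.

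Below the receptor, a part of the PI3 kinase and Akt branch differed between the controls. Of 11 tested genes 7 were higher in NTC IR-2 than in NTC IR-1 and 0 were lower, with a median log2 fold change of 0.35, where 10.3% of all rows were called higher and the median of all rows was -0.04. The 7 were Akt, the kinase that inactivates foxo, Pdk1, which activates Akt, sgg, the glycogen synthase kinase, the phosphoprotein-binding 14-3-3zeta and 14-3-3epsilon, the adaptor dock, and step.

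14-3-3zeta had 1299.6, 1402 and 1739 CPM in NTC IR-1 and 2746, 2781 and 2847 CPM in NTC IR-2, which gave 0.92 as the log2 fold change (SE 0.114, FDR 0.00151). It had 1870.2, 2029 and 1778 CPM in dYEATS2-IR and 2709, 2761 and 2533 CPM in dENL/AF9-IR. The NTC IR-2 and dENL/AF9-IR libraries all lay above the others. For 14-3-3epsilon the means were 609.8 ± 31.4 CPM in NTC IR-1 and 907 ± 9.33 in NTC IR-2 (log2 fold change 0.57, SE 0.0808, FDR 0.00192), and for sgg they were 387 ± 40.7 and 621 ± 4.47 (0.68, SE 0.0956, FDR 0.00185). Against their own controls, 0 of 11 genes of the branch were called in dYEATS2-IR (3 at unadjusted p below 0.05, 1 by DESeq2) or in dENL/AF9-IR (0 and 0). The medians of the branch were 0.16 and -0.04. Of all rows, 21.5% and 5.22% had an unadjusted p below 0.05 in these comparisons.

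Neuronal markers moved beside these 7 genes. Between the controls 7 of 10 were higher in NTC IR-2 and 0 were lower, with a median log2 fold change of 0.76. The synaptic gene nSyb, whose promoter drives the hairpins, had a log2 fold change of 0.64 (SE 0.0874, FDR 0.0017). What part these markers have in the higher levels of the 7 genes was not tested. The count of 7 was 4 to 7 when 1 library was left out, and 4 without NTC IR-1 replicate 1 or 2 or NTC IR-2 replicate 2 or 3. It was also 4 with no filter on low counts and 3 when only the 6 control libraries were fitted.

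**Figure D4:**
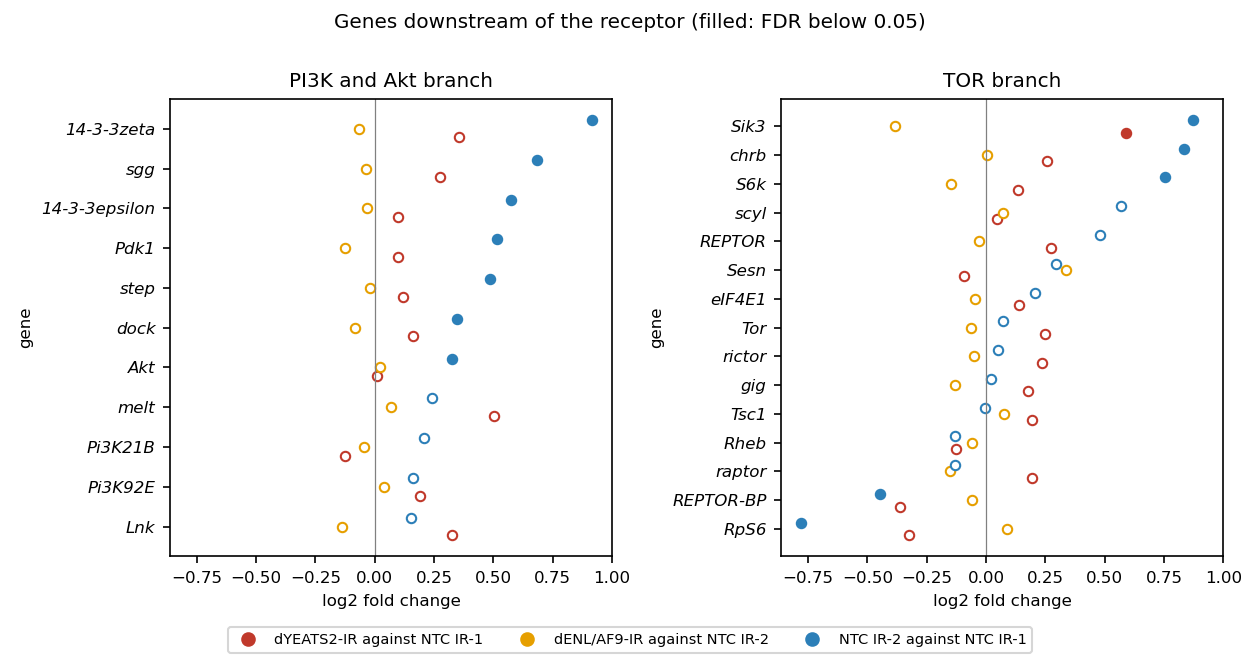
Log2 fold change (horizontal axes) of the 11 genes of the PI3 kinase and Akt branch and the 15 of the TOR branch (vertical axes) in 3 comparisons; filled symbols have an FDR below 0.05. In the first branch the 7 filled symbols all belong to the comparison of the controls and lie above 0, whereas the TOR branch holds calls on both sides.

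Of the 15 tested genes of the TOR branch 3 were higher in NTC IR-2 than in NTC IR-1 and 2 were lower, with a median of 0.07. Of all rows 10.3% were called higher and 9.16% lower, so the count of lower genes is near that background. Higher were S6k, the kinase of ribosomal protein S6 (log2 fold change 0.75, SE 0.164, FDR 0.0108), chrb, an inhibitor of TOR (0.84, SE 0.205, FDR 0.0176), and Sik3. Lower were RpS6, ribosomal protein S6 itself (713 ± 67.2 CPM in NTC IR-1 and 416 ± 84.3 in NTC IR-2; -0.78, SE 0.151, FDR 0.00707), and REPTOR-BP, partner of a transcription factor that TOR restrains (42.2 ± 3.56 and 31.0 ± 2.24 CPM; -0.45, SE 0.1001, FDR 0.0122). The call of REPTOR-BP was lost without NTC IR-2 replicate 2 (FDR 0.0508), and the branch had 3 calls between the controls without NTC IR-1 replicate 1 and 2 when only the 6 control libraries were fitted.

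Sik3, a salt-inducible kinase that acts on lipid storage in the fly downstream of insulin signalling, was the 1 gene of 47 tested in the wider pathway lists that was called in dYEATS2-IR against NTC IR-1. NTC IR-1 had 34.3, 35.7 and 41.0 CPM and dYEATS2-IR had 52.4, 55.4 and 59.2 CPM. NTC IR-2 had 60.2, 85.6 and 57.7 CPM and dENL/AF9-IR had 54.1, 48.9 and 53.0 CPM. The libraries of NTC IR-1 lay below all others. The log2 fold change in dYEATS2-IR was 0.59 (SE 0.141, FDR 0.0389), and between the controls it was 0.87 (SE 0.142, FDR 0.00339). The call in dYEATS2-IR held in 5 of 12 fits that left out 1 library, with FDR 0.00899 to 0.171, and was lost without NTC IR-1 replicates 1 or 2, without any dYEATS2-IR replicate, and without dENL/AF9-IR replicates 1 or 2. With DESeq2's size factors the FDR was 0.0501, with no filter 0.0781, and without transposable element and mitochondrial rows 0.067. With the replicate block it was 0.0721, and in that fit AkhR (FDR 0.0395) and Gbp2 (FDR 0.026) were called lower in this comparison in its place. Photoreceptor markers moved beside it: in dYEATS2-IR against NTC IR-1, 6 of 13 were higher and 0 were lower, at a median of 0.68 on the log2 scale. Of 13 fat body markers 4 were called lower and 0 higher there, at a median of -1.96. Of all rows, 2.42% were called higher and 2.35% lower. The part of these markers in the change of Sik3 was not tested.

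Genes reported as targets of foxo in flies (Lip4, bmm, daw, Pepck1 and Sesn, all 5 tested) gave 0 calls in every comparison by edgeR. The lipase gene bmm had log2 fold changes of 0.42 (SE 0.220, FDR 0.299) in dYEATS2-IR and 0.27 (SE 0.220, FDR 1) in dENL/AF9-IR against their own controls. For Pepck1, of gluconeogenesis, they were -0.59 (SE 0.769, FDR 0.716) and 2.00 (SE 0.794, FDR 0.825). Pepck1 spread widely in dENL/AF9-IR, from 11.2 to 99.0 CPM (41.5 ± 49.8), beside 7.48 to 13.4 CPM in NTC IR-2 (10.4 ± 2.99). At an unadjusted p below 0.05 the count in those comparisons was 0 and 1 (Pepck1), and between the controls it was 1 (Lip4), beside 21.5%, 5.22% and 35% of all rows. DESeq2 called 1 of the 5, Lip4, in dENL/AF9-IR against NTC IR-1 only.

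Among 12 tested genes of adipokinetic hormone and of signals that act on insulin secretion, 4 were called in the test of any difference among the groups, where 19.6% of all rows were. That count was 2 without NTC IR-1 replicate 1 or 2 and 1 without dYEATS2-IR replicate 1. The neuropeptide gene sNPF had 179 ± 14.5 CPM in NTC IR-1, 171 ± 9.10 in dYEATS2-IR, 297 ± 50.6 in NTC IR-2 and 273 ± 16.1 in dENL/AF9-IR, and was higher in NTC IR-2 than in NTC IR-1 by 0.73 on the log2 scale (SE 0.121, FDR 0.00368). AkhR, the receptor of adipokinetic hormone in fat body, had 12.7 ± 3.74, 6.04 ± 1.76, 4.17 ± 0.867 and 8.38 ± 3.71 CPM in the same order of groups. It was lower in NTC IR-2 than in NTC IR-1 by a log2 fold change of -1.60 (SE 0.337, FDR 0.00946). Gbp2, a growth-blocking peptide of fat body, had 44.9 ± 18.6, 19.0 ± 6.84, 15.9 ± 1.496 and 18.7 ± 8.57 CPM, with a log2 fold change of -1.49 (SE 0.359, FDR 0.0159). The fourth was Lst, the peptide limostatin. It had 27.1 ± 2.79, 14.5 ± 1.09, 24.3 ± 10.8 and 14.01 ± 3.42 CPM in that order of groups. Lst had an unadjusted p below 0.05 in both knockdowns against their own controls. In these comparisons 4 and 3 of the 12 genes had such a p, beside 21.5% and 5.22% of all rows, and 0 were called. Lst was called lower when dENL/AF9-IR was compared with NTC IR-1. AkhR and Gbp2, the 2 genes called lower in NTC IR-2 than in NTC IR-1, moved beside the fat body markers given above, whose part was not tested.

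Over all wider lists together, 15 of 47 tested genes were called between the controls (31.9%, beside 19.5% of all rows), 11 higher and 4 lower in NTC IR-2. In the design's knockdown comparisons the counts were 1 of 47 in dYEATS2-IR (2.13%, beside 4.77%) and 0 of 47 in dENL/AF9-IR (0%, beside 0%). DESeq2 called more in dYEATS2-IR, with 1, 2 and 3 genes of the PI3 kinase, TOR and hormone lists, and 0 of those lists in dENL/AF9-IR. Of all rows it also called more in dYEATS2-IR, 1096 of 13066 beside 604 of 12661 by edgeR. In dENL/AF9-IR it called 31 of 13834.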

How the data were processed

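Strand-specific mRNA libraries were made from head RNA with a TruSeq kit, per the labels' protocols. The authors deposited raw counts per row, and normalized counts that are a signal: each column equals a column of counts times a constant. The normalized table was used only to compare names. HISAT2, SAMtools, UMI-tools, Picard, DESeq2, FastQC 0.12.0, Trim Galore 0.6.5 and the builds BDGP6 and dm6 are named per the submitters' processing notes. The counting program and its use of strand are not given in the sources used here, so counts of overlapping and antisense genes are uncertain. Symbols of 98.9% of rows matched the annotation BDGP6.54, from which coordinates and exonic lengths come. Columns were assigned by library name, since the labels of 2 NTC IR-2 libraries also name columns of other libraries.

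The count model was fitted with edgeR 4.0.16 under R 4.3.3: filterByExpr with the 4 groups (12661 of 23793 rows kept), TMM scaling (factors 0.859 to 1.16), and 1 quasi-likelihood fit of 12 libraries with a mean per group and no covariate, tested on simulated data. P-values were adjusted by Benjamini-Hochberg over all rows tested, with calls at FDR below 0.05, and SE was derived as |log2 fold change| over √F. The tests were any difference among the groups, all 6 pairs, and the difference between both knockdown effects. Marker sums are of CPM. DESeq2 1.42.0 was an alternative test and scaling, and the other alternatives are in the closing section. Named genes were the 9 genes, up to 3 called genes per wider list in full, and the 3 nearest genes of each of the 9. Other genes named (D12, ear, Akt, Pdk1, dock, step, S6k, chrb, Lst, nSyb, Dsk, Gs2, the yolk protein genes, roX1, SP, Acp26Aa, Sdr, Lgr3, Ilp8 and the foxo targets) were named after their values were seen or as context. The genes and lists were chosen with earlier results of these data known. One gene of the PI3 kinase and Akt branch is not reported here and was left out of the counts of its list. At these depths a count of 3 is 0.0566 to 0.103 CPM. Promoter sequences were not used here.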

Additional observations from a re-analysis of the deposited data

Results flagged for a closer look

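One value was picked out because the effects of both knockdowns differed by a test of that difference. For Sik3, the dYEATS2-IR effect (against NTC IR-1) less the dENL/AF9-IR effect (against NTC IR-2) was 0.97 on the log2 scale (SE 0.199, FDR 0.0482, edgeR). The separate changes were 0.59 and -0.38, and the second was not called. Mean levels were 55.7 CPM in dYEATS2-IR and 52.0 in dENL/AF9-IR, beside 37.0 in NTC IR-1 and 67.8 in NTC IR-2. The controls thus lay further apart than the knockdowns, and the difference of effects includes that between the controls. The call of the difference of effects was lost with DESeq2's size factors (FDR 0.0617), with no filter (FDR 0.0907), with transposable element and mitochondrial rows left out (FDR 0.0816), with the replicate block (FDR 0.0987) and under the names of the normalized table (0.21, FDR 0.708). It held in 4 of 12 fits without 1 library, with FDR 0.0262 to 0.156.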

How the results depend on the processing

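Replicate numbers did not pair the libraries: the correlation of deviations from the group means was -0.23 to 0.21 over 18 pairs with the same number, only 1 pair was over 0.1, and 3 of 12 libraries correlated best with their own number. With the replicate block, 1 of the 9 genes was called in dENL/AF9-IR against NTC IR-1 (foxo, FDR 0.0469) in place of 0, and the other counts of the 9 genes kept their value. DESeq2's test also gave 1 there (foxo), and 1 in place of 0 for any difference among the groups (Ilp6, FDR 0.0352). Fits of only the 6 libraries compared gave 1 in dENL/AF9-IR against NTC IR-1 (ImpL2, FDR 0.039), and 0 between the controls in place of 1 (Ilp6, FDR 0.0722).

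When 1 library was left out, the number called was 0 to 2 for any difference among the groups, 0 to 2 between the controls, 0 to 2 in dENL/AF9-IR against NTC IR-1, 0 to 1 in dYEATS2-IR against NTC IR-1 and 0 to 1 in dYEATS2-IR against dENL/AF9-IR. It was 0 in each of these fits, and in every other alternative, for dENL/AF9-IR against NTC IR-2, dYEATS2-IR against NTC IR-2 and the difference of effects. Of the PI3 kinase and Akt branch, 4 genes were called between the controls with no filter and 3 in the 6 libraries, in place of 7, and 4 to 7 with 1 library left out.

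With the normalized table's names, the dYEATS2-IR comparison becomes that of the present dENL/AF9-IR and NTC IR-2 libraries, and the dENL/AF9-IR comparison that of the present NTC IR-1 and dYEATS2-IR libraries. Of all rows, 604 of 12661 were then called in the dENL/AF9-IR comparison and 0 in that of dYEATS2-IR. Sik3 was called in the former, lower in the knockdown than in its control, at -0.59 on the log2 scale (FDR 0.0389, edgeR). The test of any difference does not depend on the names. With them 0 of 9 genes were called between the controls, beside 1161 of 12661 rows (9.17%), and 1 in dENL/AF9-IR against NTC IR-1, beside 2467 (19.5%). Ilp6 reversed to 0.42 (FDR 0.264) between the controls and to 0.80 (FDR 0.0294) in dENL/AF9-IR against NTC IR-1, and Sik3 to -0.38 in dYEATS2-IR against NTC IR-1. Between the controls the log2 fold change became -0.56 for 14-3-3zeta (FDR 0.0129, edgeR), -0.47 for 14-3-3epsilon (FDR 0.00715), -0.41 for sgg (FDR 0.0245) and -0.80 for sNPF (FDR 0.00446). These genes were thus called in the opposite direction. The value became -0.28 for Sik3, 0.45 for RpS6, 0.0843 for REPTOR-BP, 0.53 for AkhR and 0.25 for Gbp2, which were not called. Of the 11 genes of the PI3 kinase and Akt branch 5 were then called lower and 0 higher, where 5.32% of all rows were called lower. These follow from the exchange of names. As to the targets, ear would then be at 32.0 ± 1.12 CPM in dENL/AF9-IR and 37.6 ± 2.20 in NTC IR-2. Those groups did not overlap, as in 29.3% of all rows, and ear was not called (FDR 0.281, edgeR). D12 would be at 7.76 ± 0.923 CPM in dYEATS2-IR and 7.74 ± 0.854 in NTC IR-1.

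Of 1188 log2 fold changes of the 9 genes under the alternatives without an exchange of names, 53 changed sign, 0 of them called, and 15 changed side of the threshold.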
